A study of Homo sapiens with 22 samples.

Results

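Reelin (RELN), its receptors LRP8 (also called APOER2) and VLDLR, and DAB1, the adaptor protein that carries the signal into the cell, were examined as a set of 4 genes by symbol, out of 59087 gene names in each of 2 count tables. The set was chosen by the read counts of RELN, which were high in these erythroid cells and higher in BAZ1B KO than in WT at both days, so the levels of RELN and its difference between BAZ1B KO and WT are given as descriptions without a test. RELN and LRP8 passed the filter on low counts in both experiments. VLDLR and DAB1 did not pass in either one.

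Reelin is a large secreted glycoprotein of the extracellular matrix, best known from Cajal-Retzius neurons, which release it to guide the layering of the cerebral cortex. It binds VLDLR and LRP8, members of a family of lipoprotein receptors, whose cytoplasmic tails hold DAB1. Kinases of the Src family then phosphorylate DAB1, which recruits CRK adaptors and phosphatidylinositol 3-kinase and is later degraded through a CUL5 ubiquitin ligase. Outside the brain reelin is made in liver and found in blood plasma, and DAB1 is mainly a neuronal protein.

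RNA-Seq was performed on HUDEP-2, an immortalized human erythroid progenitor line that carries a doxycycline-driven transgene and was kept in doxycycline in both media. D0 cells were in expansion medium with stem cell factor, erythropoietin and dexamethasone, and D6 cells had spent 6 days in maturation medium with stem cell factor, erythropoietin, insulin and holo-transferrin. The H2A.X experiment holds 2 WT and 3 KO libraries at each day, and the BAZ1B experiment 3 WT and 3 KO libraries at each day, which makes 22 libraries. KO cells were subclones grown from about 1 cell each after transduction with CRISPR/Cas9 vectors for a pair of guides, with a homozygous deletion of the H2A.X coding region or of the region around the first exon of BAZ1B. The study also speaks of WT subclones, handled in the same way as the KO lines. The labels number the replicates without saying how separate the cultures were, so p-values measure the spread between these libraries only.

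Library totals were 11910141 to 21013004 counted reads in the H2A.X experiment and 33199408 to 41273244 in the BAZ1B experiment. H2AFX, the symbol of H2A.X in the tables, stood at 94.7 to 112 reads per 1000000 counted reads (CPM) in WT and at 17.2 to 52.6 CPM in H2A.X KO, and BAZ1B, of which the exons after the first remain, had a log2 fold change of -0.40 at D0 and -0.38 at D6 in BAZ1B KO. The H2A.X WT libraries stood apart in maturation, since 265 of 13236 tested genes (2%) changed from D0 to D6 in them, against 30.9% in H2A.X KO, 68.9% in BAZ1B WT and 67.7% in BAZ1B KO. In that experiment 5 of the 6 KO columns, and no WT column, carry the word Redo in their names. In H2A.X KO against WT, log2 fold changes rose with transcript length (Spearman rho over 12016 genes 0.548 at D0 and 0.597 at D6, a description across genes that share the same libraries). In BAZ1B KO against WT rho over 12406 genes was -0.0233 and 0.0415. These 3 features touch the results on the H2A.X experiment, and their part in them was not tested beyond the values given beside each.

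RELN (ENSG00000189056.15) lies on the minus strand of chromosome 7, from 103471381 to 103989658 in GRCh38. Its main transcript is 11708 bases long, 10407 of them coding, which is longer than the transcripts of 97.98% of protein-coding genes. The 250 bases before its annotated start, at chr7:103989659-103989908 on the minus strand of GRCh38.p14 as RefSeq gives them, are printed because RELN is the member whose reads carry the results below. Capitals mark matches on either strand to the GC box GGGCGG, bound by factors of the SP and KLF families, and to the E-box CACGTG, bound by bHLH factors.
RELN upstream: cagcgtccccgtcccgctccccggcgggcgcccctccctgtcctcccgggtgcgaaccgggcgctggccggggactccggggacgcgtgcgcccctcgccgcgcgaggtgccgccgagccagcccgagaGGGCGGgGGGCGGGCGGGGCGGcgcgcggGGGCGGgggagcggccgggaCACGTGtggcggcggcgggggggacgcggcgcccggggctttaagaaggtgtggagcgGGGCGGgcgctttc

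This stretch was 83.2% G and C and held 43 CpG pairs, where the median of 35116 upstream stretches of the same length was 58% and 11 CpG pairs, and 98.98% of them held fewer. It held 6 GC boxes, overlapping ones counted separately, and 1 E-box, against 42.6% and 6.34% of all stretches with at least 1. Sites of the GATA family, searched on both strands as the letters AGATAA, as the letters AGATAG, as the letters TGATAA and as the letters TGATAG, had no match in it, and 22.3% of all stretches held at least 1. The stretch before the RefSeq start of LRP8 was 77.2% G and C with 31 CpG pairs, that of VLDLR 78.8% with 41, and those of 6 starts of DAB1 were 58.4% to 82.8%. No library here measured binding or methylation of these stretches.

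LRP8 (ENSG00000157193.18) lies on chromosome 1 from 53242364 to 53328469 on the minus strand, with a transcript of 7704 bases. DAB1 (ENSG00000173406.16) also lies on chromosome 1, from 56994778 to 58546734 on the minus strand, and its transcript has 5301 bases. VLDLR (ENSG00000147852.17) lies on chromosome 9 from 2621182 to 2660056 on the plus strand, with a transcript of 9213 bases. RELN and LRP8 overlap annotated antisense genes that are not named in the tables, among them SLC26A5-AS1 for RELN. Sources differ on whether the libraries kept the strand, and without it reads of such a gene cannot be told apart from those of RELN or LRP8. RN7SKP86, which lies inside RELN on the same strand, had at most 5 reads in a library.

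RELN gave reads in all 22 libraries, from 1892 to 59585. In the BAZ1B experiment, WT cells at D0 had 819, 836 and 789 CPM of RELN, and BAZ1B KO cells at D0 had 1504, 1568 and 1446. At D6, WT cells had 449, 462 and 442 CPM, and KO cells had 1080, 928 and 1195. Every KO library lay above every WT library of its day, which 9.76% of the 13879 tested genes showed at D0 and 15.7% at D6.

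In the H2A.X experiment, RELN stood at 528 and 206 CPM in WT at D0 and at 1165, 1464 and 1354 CPM in KO at D0. At D6 the WT libraries had 239 and 159 CPM, and the KO libraries 1470, 823 and 612. KO and WT did not overlap at either day, as in 36.1% of the 13236 tested genes at D0 and 31% at D6. The KO libraries at D6 were spread over a wide range, and the lowest of them is replicate 3, the KO column without the word Redo.

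**Figure D1:**
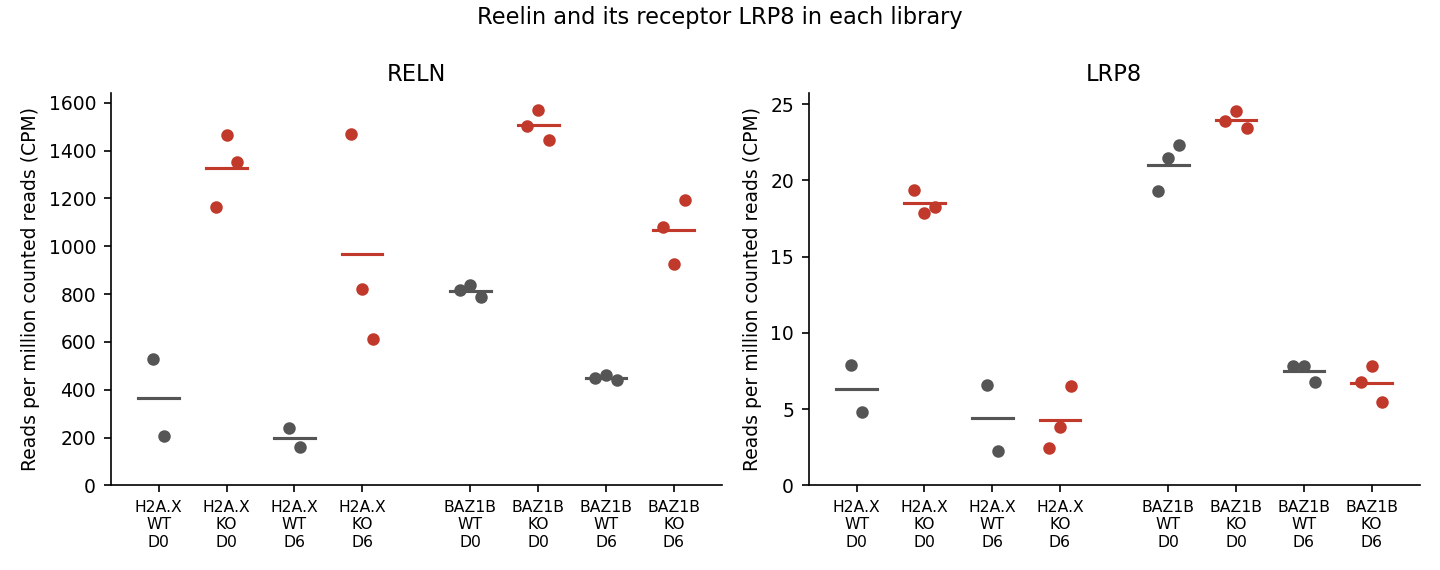
Reads per 1000000 counted reads (CPM) of RELN (left) and LRP8 (right) in each of the 22 libraries, with grey points for WT, red points for KO and a bar at the mean of each group. RELN is higher in every KO library than in the WT libraries of the same experiment and day, and LRP8 is lower at D6 than at D0 except in H2A.X WT, where the days overlap.

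By group mean, RELN was highest in BAZ1B KO at D0 (1506 ± 61 CPM, SD, n = 3), followed by H2A.X KO at D0 (1327 ± 151, n = 3), BAZ1B KO at D6 (1067 ± 134, n = 3), H2A.X KO at D6 (968 ± 447, n = 3) and BAZ1B WT at D0 (815 ± 23.5, n = 3). The lowest were BAZ1B WT at D6 (451 ± 10.3, n = 3), H2A.X WT at D0 (367 ± 228, n = 2) and H2A.X WT at D6 (199 ± 56.4, n = 2). Of neighbours in this order, the fifth and the sixth, BAZ1B WT at D0 and at D6, did not overlap with each other, and all other pairs of neighbours overlapped. The tables were prepared separately, so levels are set side by side between experiments as CPM only.

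Ranked by reads, RELN was between the 50th and the 1011th gene name in a library. Longer transcripts give more reads, so levels between genes are compared per kilobase. On that scale RELN stood at 129 ± 5.21 RPKM (CPM divided by the transcript length in kilobases) in BAZ1B KO at D0 and at 17.0 ± 4.82 RPKM in H2A.X WT at D6, the highest and lowest group means. Among the 37179 gene names with a transcript length, its rank per kilobase was between 454 and 3839.

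LRP8 reads were far fewer. WT cells of the BAZ1B experiment had 19.3, 21.5 and 22.3 CPM at D0 and 7.81, 7.81 and 6.80 CPM at D6. BAZ1B KO cells had 23.9, 24.6 and 23.4 CPM at D0 and 6.76, 7.86 and 5.48 CPM at D6. In both genotypes the D6 libraries lay below all D0 libraries, as in 39.9% (WT) and 34.6% (KO) of all tested genes. At D0 BAZ1B KO lay above WT by a small gap, as in 9.76% of all tested genes. At D6 the genotypes overlapped.

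In the H2A.X experiment, LRP8 stood at 7.91 and 4.78 CPM in WT at D0 and at 19.4, 17.8 and 18.3 CPM in KO at D0. At D6 WT had 6.56 and 2.27 CPM and KO had 2.46, 3.85 and 6.54 CPM. The KO libraries at D0 were thus close to those of the BAZ1B experiment at D0, and the WT libraries at D0 were at the level of D6 cells. By group mean LRP8 was highest in BAZ1B KO at D0 (24.0 CPM), followed by BAZ1B WT (21.0) and H2A.X KO (18.5) at D0, BAZ1B WT (7.47) and KO (6.70) at D6, H2A.X WT at D0 (6.35), and H2A.X WT (4.41) and KO (4.28) at D6. The first and the third group in this order did not overlap with the next, and all others did. Per kilobase, RELN exceeded LRP8 by 23.9 to 393 times in the H2A.X and 23.3 to 143 times in the BAZ1B libraries (10.1 to 166 and 9.82 to 60.5 times by coding length).

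VLDLR, the other canonical receptor, gave no read in any of the 12 BAZ1B libraries, where 3 reads, the limit that a count of 0 allows, would be 0.0727 to 0.0904 CPM. In the H2A.X experiment 6 of 10 libraries held VLDLR reads, 34 in all. KO at D0 had 17, 2 and 0 reads, KO at D6 had 1, 6 and 3, WT at D6 had 5 and 0, and both WT libraries at D0 had none. The 17 reads of KO replicate 1 at D0 made 0.921 CPM, and the reads in the other libraries were too few to compare the groups. VLDLR-AS1, which overlaps VLDLR on the other strand, had at most 1 read in a library.

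DAB1, the adaptor, was represented by 1 read in 1 of the 22 libraries, a WT library of the BAZ1B experiment at D0. The other 21 libraries had none. These limits cover counting error only. Transcripts of VLDLR and DAB1 were not detectable at this depth in the BAZ1B experiment beyond that read, and the data do not speak of protein.

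The BAZ1B knockout was compared with WT to ask what loss of this kinase of H2A.X does to gene expression. In BAZ1B KO, RELN was higher than in WT by a log2 fold change of 0.88 ± 0.08 (SE, n = 3 and 3, 1.84-fold) at D0 and 1.25 ± 0.08 (2.38-fold) at D6. Of the 13879 tested genes, 274 (1.97%) had a larger log2 fold change at D0 and 165 (1.19%) at D6. The difference at D6 exceeded that at D0 by 0.37 ± 0.11 on the log2 scale, and this value is 0.26 without KO replicate 3 at D6. A change in the RNA of each cell and a change in the share of cells that make it cannot be told apart in bulk libraries.

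With a correction for transcript length and GC content, the log2 fold change of RELN was 0.92 at D0 and 1.24 at D6. Among the 972 tested genes with transcripts of at least 8 kb, the median log2 fold change was -0.0183 at D0 and -0.00457 at D6, and RELN was above 97.4% and 98.7% of them. Over 15 alternatives at each day it ranged from 0.84 to 0.92 at D0 and from 1.14 to 1.34 at D6. The summed level of 12 erythroid markers was 3440 to 4160 CPM in BAZ1B WT and 4630 to 5140 in KO at D0, and 27400 to 31800 and 21500 to 24300 CPM at D6. At D0 HBB, the beta-globin gene, alone stood at 1750 to 2390 CPM in WT and 2960 to 3510 in KO, and without it the highest sums were 1770 and 1670 CPM. Of the 12 markers, 1 was called higher and 3 lower at D0 (median log2 fold change -0.142), and none higher and 5 lower at D6 (-0.267). The part of these markers in the difference of RELN was not tested.

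LRP8 was not called in BAZ1B KO against WT by edgeR's quasi-likelihood test, with Benjamini-Hochberg adjusted p-values over all tested genes and a threshold of 0.05. Its log2 fold change was 0.19 ± 0.10 at D0 (adjusted p = 0.406) and -0.15 ± 0.11 at D6 (adjusted p = 0.422). The difference of these effects, -0.34 ± 0.15, was not called either (adjusted p = 0.279). The test called 3.88% of all genes at D0, 12.8% at D6 and 2.47% for the difference between days. The other receptor VLDLR was at 0 in both genotypes, and DAB1 had its only read in WT.

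The H2A.X knockout was compared with WT to ask how loss of this histone variant alters transcription in maturing erythroblasts. RELN rose in H2A.X KO by 1.74 ± 0.41 on the log2 scale at D0 (3.33-fold, adjusted p = 0.0128) and by 2.19 ± 0.42 at D6 (4.55-fold, adjusted p = 0.00478), higher in 3 of 3 KO libraries at each day. The test called 35.1% of all genes at D0 and 43.1% at D6, with 18.4% and 22.2% higher. Without WT replicate 2, the adjusted p of RELN was 0.139 at D0 (log2 fold change 1.27) and 0.0681 at D6 (2.04), and in the libraries without the word Redo, 1 KO and 2 WT at D6, it was 0.0842 (1.42). At D0 every KO column and no WT column carries this word, so it and the genotype cannot be told apart there. Erythroid markers summed to 20500 to 27200 CPM in H2A.X WT and 9110 to 11700 in KO at D0, and to 31800 to 49400 and 30600 to 51600 CPM at D6. Of the 12 markers, 9 were called lower and none higher at D0, and 2 lower and 1 higher at D6, and their part in the difference of RELN was not tested.

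Long transcripts as a class were higher in H2A.X KO. The 939 tested genes with transcripts of at least 8 kb had a median log2 fold change of 1.02 at D0 and 1.01 at D6, against 0.0496 and 0.0364 over all tested genes with a length, and RELN was above 79.4% and 91.1% of these long genes. After correction of each library for length and GC content, the log2 fold change of RELN was 0.89 at D0 (adjusted p = 0.049) and 1.27 at D6 (adjusted p = 0.0177).

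**Figure D2:**
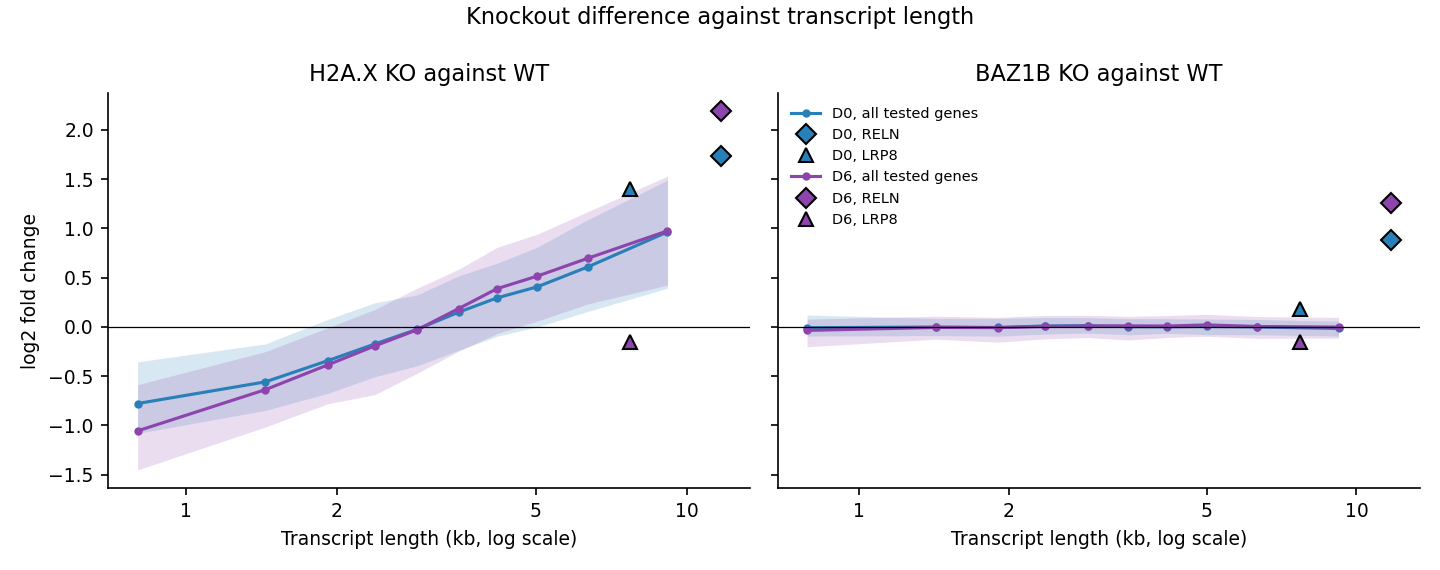
Log2 fold change of KO against WT by transcript length in kilobases on a log axis, in the H2A.X (left) and BAZ1B (right) experiments at D0 (blue) and D6 (purple). Lines join the medians of 10 length classes of tested genes and bands span their quartiles, with diamonds for RELN and triangles for LRP8. In H2A.X KO the medians climb to near 1 in the longest class and RELN lies above the upper quartile of that class (1.49 at D0 and 1.53 at D6), and in BAZ1B KO they stay near 0.

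For LRP8 at D0 all 3 H2A.X KO libraries lay above both WT libraries, as in 36.1% of all tested genes. LRP8 was also called higher in KO there, by 1.40 ± 0.43 (2.64-fold, adjusted p = 0.03). Leaving out any 1 of the 5 libraries ended this call (adjusted p = 0.0618 to 0.232), as did the correction for length and GC content (log2 fold change 0.75, adjusted p = 0.234). At D6 LRP8 differed by -0.16 ± 0.43 (adjusted p = 0.785). The difference of the KO effects between days was -1.56 ± 0.60 for LRP8 (adjusted p = 0.249) and 0.45 ± 0.55 for RELN (adjusted p = 0.778), neither called, with 1.34% of all genes called.

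The days were compared to follow maturation. RELN fell from D0 to D6 in BAZ1B WT, by 0.69 ± 0.08 on the log2 scale (adjusted p = 3.91e-06, 3 of 3 libraries lower), and in BAZ1B KO by 0.32 ± 0.08 (adjusted p = 0.0024, 3 of 3 lower). All D6 libraries lay below all D0 libraries in both genotypes, as in 39.9% (WT) and 34.6% (KO) of all tested genes, and 35.4% and 34.5% were called lower. In the H2A.X experiment the change was -0.68 ± 0.43 in WT (adjusted p = 0.398) and -0.23 ± 0.35 in KO (adjusted p = 0.654), and the days overlapped in both. After correction for length and GC content, the fall in BAZ1B KO was 0.15 (adjusted p = 0.0524).

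LRP8 also fell. The log2 fold change of D6 against D0 was -1.33 ± 0.10 in BAZ1B WT (adjusted p = 1.31e-07), -1.67 ± 0.11 in BAZ1B KO (adjusted p = 1.77e-08) and -1.91 ± 0.38 in H2A.X KO (adjusted p = 0.00441), lower in 3 of 3 libraries of each and with no overlap of the days, as in 25.2% of all genes in H2A.X KO, where 16.1% were called lower. In H2A.X WT, which entered with a low level at D0, it was -0.35 ± 0.47 (adjusted p = 0.72). LRP8 was thus 2.52-fold lower at D6 in BAZ1B WT and 3.18-fold lower in BAZ1B KO, and 89% and 91.4% of all tested genes stood above it in these comparisons.

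**Figure D3:**
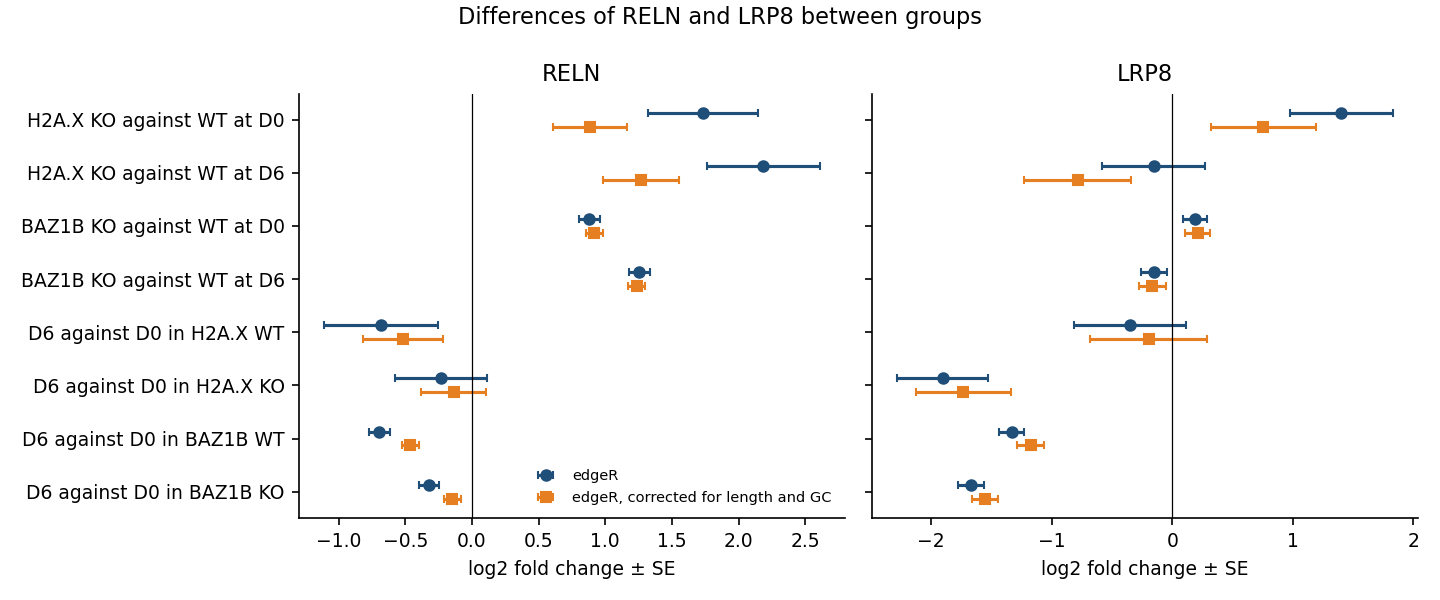
Log2 fold changes of RELN (left) and LRP8 (right) in 8 comparisons, with bars of 1 standard error, as fitted by edgeR (blue circles) and with a correction for transcript length and GC content (orange squares). The correction moves RELN in H2A.X KO against WT from 1.74 and 2.19 to 0.89 and 1.27 and leaves it near 0.9 and 1.2 in BAZ1B KO against WT.

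Erythroid markers were present in every group, with 10 to 12 of 12 above 1 CPM. The listed neuronal and hepatocyte markers were at or near 0 with the exceptions GAD1 and CALB2. Of 14 neuronal markers, RBFOX3, DCX, ELAVL4, GAD2 and LHX5 were at 0 in all libraries, and GAD1, which makes the transmitter GABA, held nearly all of the summed level of 39.7 to 140 CPM. Without GAD1 that sum was at most 11 CPM in a library. The 7 hepatocyte markers summed to at most 0.633 CPM, with APOA2 and SERPINA1 at 0 throughout. GAD1 stood at 59.7 to 65.0 CPM in BAZ1B WT and 61.7 to 76.2 CPM in KO at D0, and at 103 to 139 CPM in H2A.X WT and 66.6 to 75 CPM in KO at D0.

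CALB2 encodes calretinin, a calcium-binding protein of Cajal-Retzius and other neurons. It was higher in both KO at D0, as RELN was, and is named after its values were seen. Its counts were low outside the KO groups at D0, so it is described without a test. Its mean was 5.25 ± 4.51 normalized counts (SD, n = 3) in BAZ1B WT and 60.3 ± 22.7 (n = 3) in BAZ1B KO at D0, a log2 fold change of 3.48 ± 0.53. In the H2A.X experiment it was 9.11 ± 5.73 (n = 2) in WT and 98.2 ± 64.0 (n = 3) in KO at D0, a log2 fold change of 3.44 ± 0.73. At D6, where RELN was also higher in both KO, CALB2 was at 0 in H2A.X KO and at a mean of 0.774 normalized counts in BAZ1B KO. In WT at D6 the neuronal markers without GAD1 summed to at most 0.588 CPM (H2A.X) and 0.168 CPM (BAZ1B). GAD1 was lower in H2A.X KO than in WT at D0. Of the 14 neuronal markers only 2, GAD1 and CALB2, were tested. Their median log2 fold change was 1.25 at D0 and -2.56 at D6 in H2A.X KO. In BAZ1B KO these medians were 1.79 and 0.46. Each is the midpoint of GAD1 and CALB2 and does not stand for neuronal markers as a set.

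The 6 megakaryocyte and platelet markers summed to 1.31 to 84.3 CPM over all libraries, with PF4 and PPBP at 0. Their sums were 75.5 to 79.8 CPM in BAZ1B WT and 36.1 to 72.6 in KO at D0, and 8.16 to 10.4 CPM in H2A.X WT and 36.8 to 84.3 in KO at D0. ITGA2B alone held nearly all of these sums, and without it they were at most 0.114 CPM in a library. The 8 mast cell and eosinophil markers summed to 501 to 532 CPM in BAZ1B WT and 476 to 655 in KO at D0, and to 111 to 131 CPM in H2A.X WT and 233 to 472 in KO at D0. At D6 these sums were under 39 CPM in every group but H2A.X WT, where they were 119 to 221 CPM. CLC, a marker of eosinophils, was at 0 in the H2A.X experiment. Which cells hold the RELN reads was not tested.

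The neighbourhood of RELN on chromosome 7 was examined next. Of 55 annotated genes within 1 Mb of RELN, 13 were tested in the BAZ1B experiment. None was called in BAZ1B KO against WT at either day by edgeR (lowest adjusted p = 0.348 at D0 and 0.157 at D6). Of all tested genes, 3.88% were called at D0 and 12.8% at D6, and 13 genes are too few to be set apart from these shares. The 4 nearest tested genes, PSMC2, a proteasome subunit, DNAJC2, a ribosome-associated chaperone, ORC5 of the origin recognition complex and PMPCB, a mitochondrial processing peptidase, lie 101 to 140 kb from RELN. Their log2 fold changes were at most 0.08 in absolute size at D0 and 0.04 at D6.

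In H2A.X KO, the same 4 genes had log2 fold changes of at most 0.29 in absolute size at D0 and 0.21 at D6, and none was called. Farther away, KMT2E, a chromatin protein of the KMT2 family, rose in H2A.X KO by 1.53 (adjusted p = 0.0175) at D0 and 2.22 (adjusted p = 0.00451) at D6, and POLR2J, a subunit of RNA polymerase II, fell by 1.04 (adjusted p = 0.0103) and 1.19 (adjusted p = 0.00469). At D6 NAPEPLD, an enzyme of lipid mediator synthesis, also rose (adjusted p = 0.0189), and LRWD1 (-0.79) and LINC01004 (-1.95) fell. The remaining tested genes, FAM185A and ARMC10 here and also FBXL13 and RASA4DP in the BAZ1B experiment, were not called. Of the 11 neighbours tested in the H2A.X experiment, 1 rose and 1 fell at D0, beside 35.1% of all tested genes called. At D6, 2 rose and 3 fell, beside 43.1% of all tested genes. These calls are given without the correction for length and GC content.

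**Figure D4:**
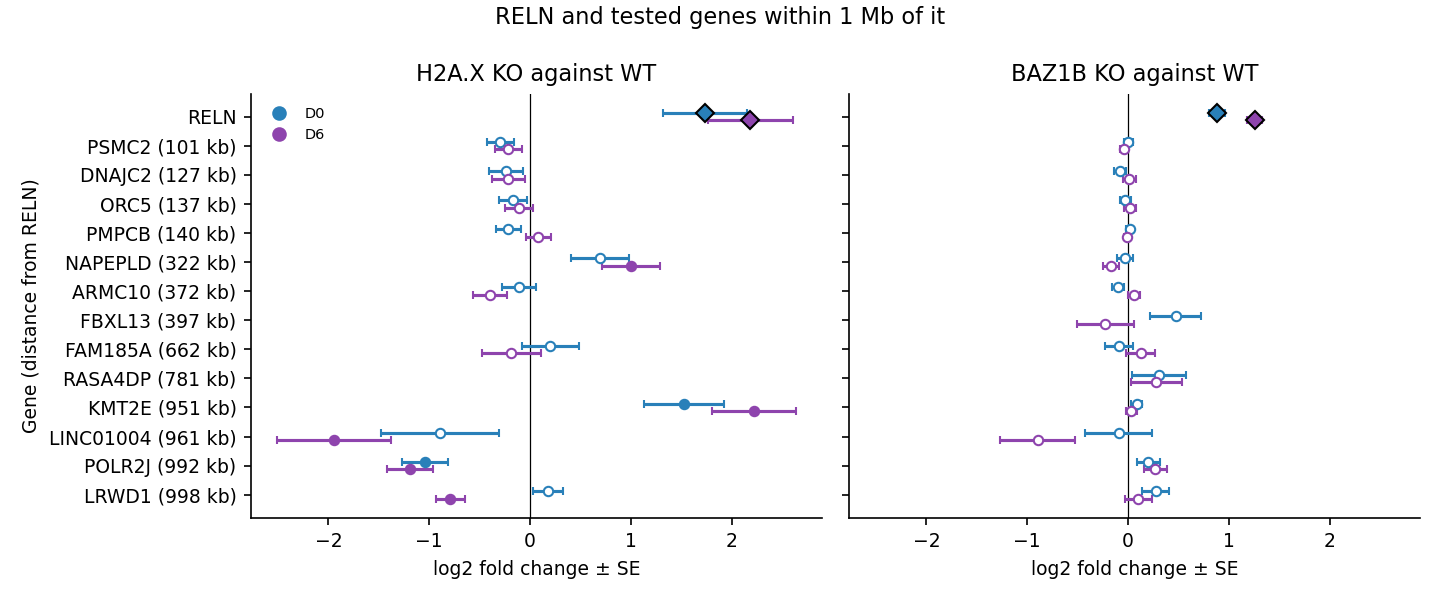
Log2 fold change of KO against WT, with bars of 1 standard error, for RELN (diamonds) and the tested genes within 1 Mb of it, ordered by distance from RELN in kb, in the H2A.X (left) and BAZ1B (right) experiments at D0 (blue) and D6 (purple). Filled circles passed an adjusted p of 0.05. In BAZ1B KO all neighbours have open circles, with the nearest 4 within 0.08 of 0, and RELN stands at 0.88 and 1.25.

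Genes whose log2 CPM followed RELN most closely over the libraries were sought among those whose normalized counts averaged 50 or more. In the 12 BAZ1B libraries these were SAMD4B, an RNA-binding repressor of translation (Pearson r = 0.957), FNBP1L, a regulator of actin assembly (0.955), ST8SIA1, the ganglioside GD3 synthase (0.948), ACAP1, an activator of ARF GTPases (0.943), and PHF7, a chromatin reader (0.94). In the 10 H2A.X libraries they were TSTD2 (0.995), LRRC8B, a subunit of volume-regulated anion channels (0.994), HLCS, which attaches biotin to carboxylases (0.988), DENND4C (0.987) and FAM120A (0.987). The libraries share groups, depth and, in the H2A.X experiment, the trend with length, so these values are descriptions. The 102 genes of the top 1% in the H2A.X and the 110 in the BAZ1B experiment had 0 genes in common. LRP8 followed RELN with r = 0.398 and 0.39.

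The rest of the pathway was followed in 3 lists of genes, chosen with earlier results of these data known. The first held 14 genes for proteases that cut reelin and for other ligands of its receptors, the second 22 genes for the receptor family, proposed co-receptors and proteins of receptor turnover, and the third 36 genes for the steps after DAB1. In the BAZ1B experiment 5, 17 and 31 of them were tested, and in the H2A.X experiment 5, 16 and 30.

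In BAZ1B KO against WT at D0, 2 of the 53 tested genes of these lists passed, beside 3.88% of all tested genes. APP, a membrane protein reported to bind reelin, was lower (log2 fold change -0.27 ± 0.05, adjusted p = 0.0132), and so was LRP6, a Wnt co-receptor (-0.19 ± 0.04, adjusted p = 0.0213). Neither was called in the D0 libraries alone (adjusted p = 0.0659 for both) or without WT replicate 1, WT replicate 2 or KO replicate 3, and the call of LRP6 also ended without WT replicate 3 or KO replicate 2. The medians of the 3 lists were 0.103, 0.0356 and 0.00048, beside 0.00264 over all tested genes.

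At D6, 6 genes were higher and 3 lower in BAZ1B KO, against 6.87% and 5.97% of all tested genes. Receptor genes gave 4 of 17 higher and none lower. LRP4, a receptor for agrin, was higher by 1.23 ± 0.23 (adjusted p = 0.00347) on 22 to 24 reads in WT and 42 to 81 in KO. ITGB1, an integrin subunit proposed to bind reelin, stood at 287 to 299 CPM in WT and 319 to 346 CPM in KO, a log2 fold change of 0.21 ± 0.06 (adjusted p = 0.0263), and its call ended in 5 of the 6 fits that left out 1 library (adjusted p = 0.0723 to 0.104), all but that without KO replicate 1.

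Among ligands and proteases, APOE, an apolipoprotein that shares the receptors of reelin, had 2.88, 2.57 and 4.14 CPM in WT at D6 and 9.09, 10.8 and 15.2 CPM in BAZ1B KO, a log2 fold change of 1.88 ± 0.32 (adjusted p = 0.00224). ADAMTS3, a protease that inactivates reelin, was lower (log2 fold change -0.29 ± 0.07, adjusted p = 0.0168). All 3 KO libraries lay above all WT libraries for APOE, as in 15.7% of all tested genes. The call of ADAMTS3 ended without WT replicate 2 (adjusted p = 0.0795) or KO replicate 3 (adjusted p = 0.0723). Downstream, PIK3R1, the regulatory subunit of phosphatidylinositol 3-kinase, was higher by 0.38 ± 0.06 (adjusted p = 0.00128) and PIK3CA, a catalytic subunit, lower (log2 fold change -0.16 ± 0.05, adjusted p = 0.0443). SRC was lower (log2 fold change -2.21 ± 0.64, adjusted p = 0.0387) at means of 1.78 and 8.64 normalized counts. The calls of PIK3CA and SRC both ended in each of the 6 fits that left out 1 library (adjusted p = 0.0553 to 0.112 for PIK3CA and 0.0684 to 0.123 for SRC) and with the replicate number as a block. The list medians were 0.0363, 0.188 and 0.0614, beside -0.00372 over all genes.

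**Figure D5:**
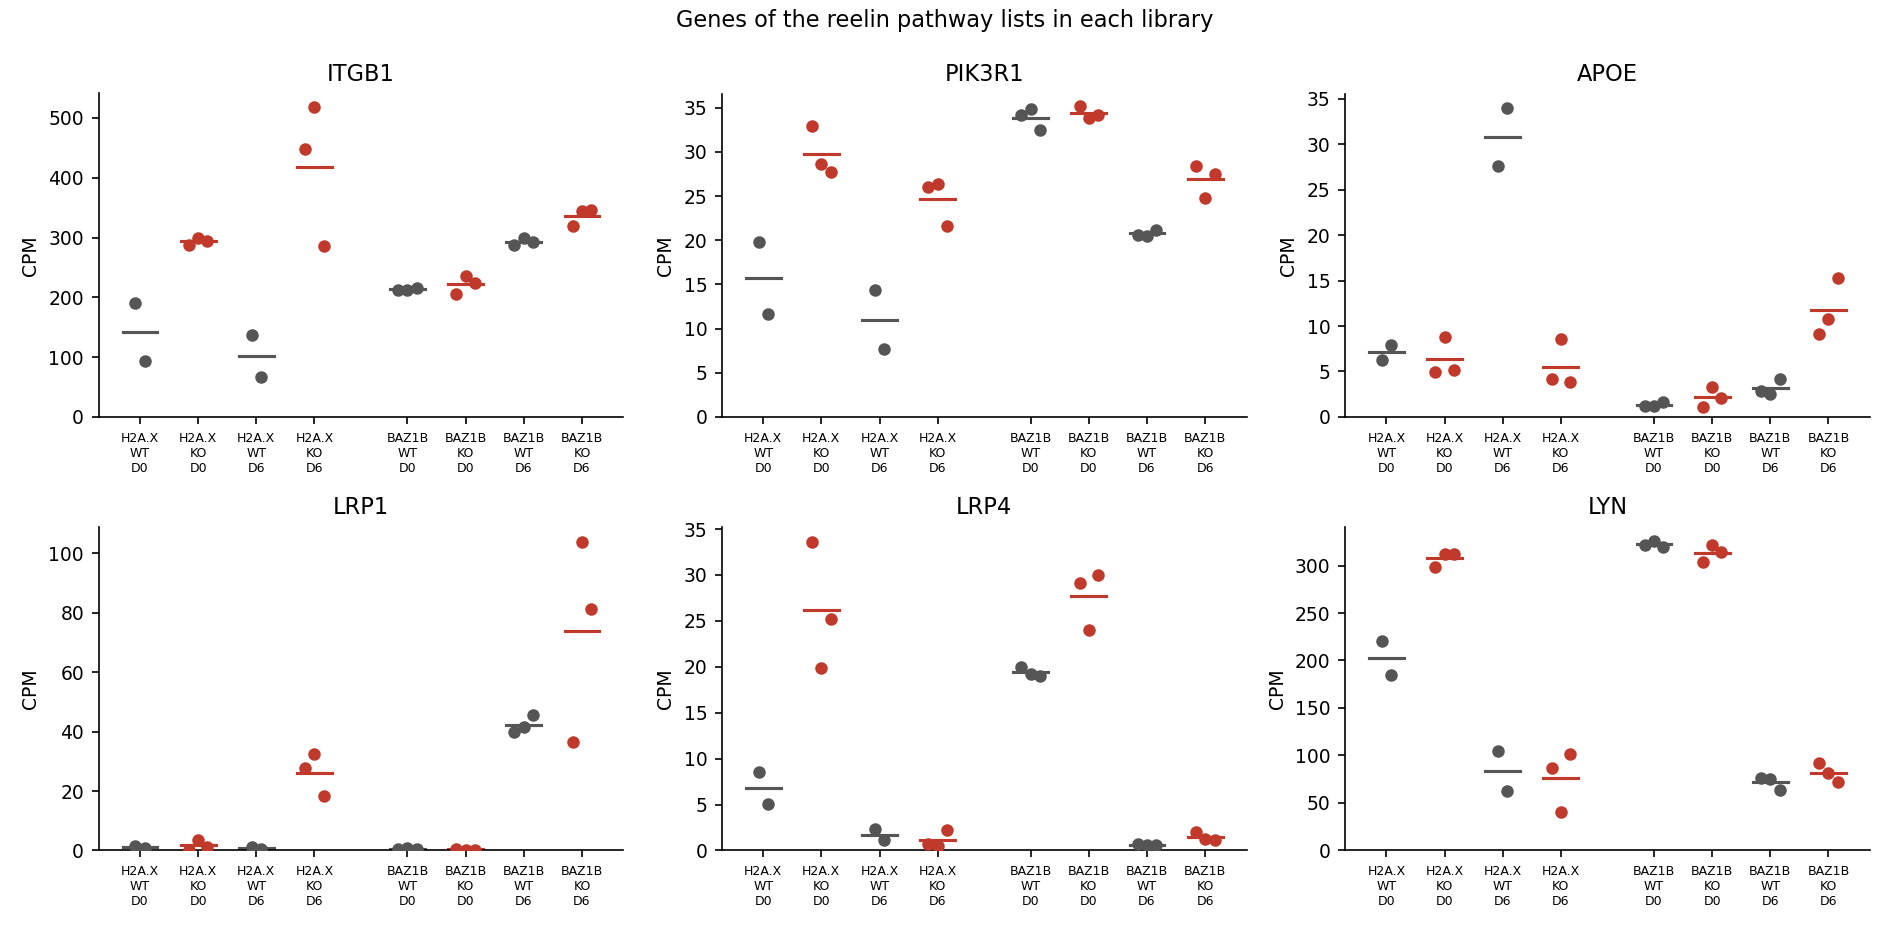
Reads per 1000000 counted reads (CPM) of 6 genes of the pathway lists in each library, with grey points for WT, red points for KO and a bar at each group mean. APOE in BAZ1B cells at D6 is 2.57 to 4.14 CPM in WT and 9.09 to 15.2 in KO, and LRP1 is near 0 at D0 and higher at D6 except in H2A.X WT.

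In H2A.X KO against WT at D0, 1 of 5 ligand and protease genes rose, 5 of 16 receptor genes rose, and of 30 signalling genes 9 rose and 3 fell. At D6 the counts were 1 higher and 1 lower, 8 and 2, and 12 and 5. Of all tested genes, 35.1% were called at D0 (18.4% higher) and 43.1% at D6 (22.2% higher). Without WT replicate 2 none of the genes of the 3 lists was called at either day, and 0.551% of all genes were called at D0 and 1.1% at D6. LRP6 rose by 1.74 ± 0.34 at D0 (adjusted p = 0.00784) and 1.67 ± 0.34 at D6 (adjusted p = 0.00551). ADAMTS3 rose by 0.93 ± 0.29 at D0 (adjusted p = 0.0315) and by 1.29 ± 0.29 at D6 (adjusted p = 0.00769). With a correction for length and GC content LRP6 was called at D0 (adjusted p = 0.0201) and not at D6 (adjusted p = 0.052), and ADAMTS3 at neither day (adjusted p = 0.238 and 0.0959). The list medians were 0.242, 0.678 and 0.288 at D0 and 0.961, 0.681 and 0.51 at D6, beside 0.0134 and -0.0062 over all genes.

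With the correction for length and GC content the counts were 0, 3 and 3 genes higher and 0, 1 and 3 lower at D0, and 0, 3 and 2 higher and 0, 1 and 4 lower at D6, and the median of the signalling list moved to 0.0486 and -0.0314. This correction left 21.2% of all genes called at D0 and 21.8% at D6. LRP5 and LRP12, both receptors of the family, rose at D0 by 1.27 ± 0.29 and 2.22 ± 0.58 and kept their calls under the correction (adjusted p = 0.0186 and 0.0375), and LRP4 did not (adjusted p = 0.128). LRP1, an endocytic receptor of many ligands, stood at 0.336 and 1.18 CPM in H2A.X WT and 18.3 to 32.4 CPM in KO at D6, a difference of 4.97 ± 0.93 (adjusted p = 0.00451, and 0.0141 under the correction). APOE was lower at D6 (-2.57 ± 0.42, adjusted p = 0.00375), which the correction moved to -1.04 (adjusted p = 0.0985). ITGB1 was higher at D6 by 1.97 ± 0.36 (adjusted p = 0.00446).

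The signalling genes with the smallest p at D0 were higher in H2A.X KO: SOCS7, an adaptor that binds phosphorylated DAB1, by 1.45, RAPGEF1, an exchange factor that binds CRK, by 1.16, PIK3CA by 1.26 and GSK3B, a kinase that phosphorylates tau, by 0.95. At D6 CUL5, the ligase scaffold, was higher by 1.08 and CRKL, an adaptor, by 0.91, while RNF7, the RING partner of CUL5, had a log2 fold change of -1.10 and PAFAH1B3, a partner of LIS1, of -1.43. The adjusted p of these 8 genes lay between 0.0043 and 0.0143. Under the correction for length and GC content 3 of them were called, SOCS7 (log2 fold change 0.77, adjusted p = 0.0272), RAPGEF1 (0.67, adjusted p = 0.0288) and RNF7 (-1.18, adjusted p = 0.0106). The other 5 were not, with values of 0.42 for PIK3CA, 0.23 for GSK3B, 0.24 for CUL5, 0.44 for CRKL and -0.28 for PAFAH1B3 (adjusted p = 0.0871 to 0.342).

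Across maturation, LRP4 was called lower in 3 of the 4 sets of cells, with log2 fold changes of -4.78 ± 0.19 in BAZ1B WT (adjusted p = 3.29e-10), -4.07 ± 0.17 in BAZ1B KO (adjusted p = 4.31e-10) and -4.36 ± 0.49 in H2A.X KO (adjusted p = 0.000276). In H2A.X WT it had 8.60 and 5.04 CPM at D0 and 2.29 and 1.18 CPM at D6, a log2 fold change of -1.77 ± 0.57 that was not called (adjusted p = 0.124). LRP6 fell as well in BAZ1B WT (-0.66 ± 0.04) and KO (-0.56 ± 0.04). LRP1 rose by 6.17 ± 0.43 in BAZ1B WT (adjusted p = 4.05e-08), 7.90 ± 0.47 in BAZ1B KO (adjusted p = 1.09e-08) and 4.20 ± 0.71 in H2A.X KO (adjusted p = 0.00205), and ITGB1 by 0.77 ± 0.06 in BAZ1B KO (adjusted p = 6.47e-08). ITGB1 was also higher at D6 in BAZ1B WT, at 286.7 to 299.4 CPM against 211.9 to 215.5 CPM at D0. In H2A.X WT, LRP1 had 27 and 11 reads at D0 and 19 and 4 at D6, and APOE was the one gene of the 3 lists that was called (log2 fold change 2.29 ± 0.48, adjusted p = 0.0425).

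APOE rose in BAZ1B WT by 1.42 ± 0.36 (adjusted p = 0.0031) and in BAZ1B KO by 2.58 ± 0.34 (adjusted p = 1.68e-05). EFNB2, an ephrin reported to take part in reelin signalling, fell in BAZ1B WT (-1.18 ± 0.34, adjusted p = 0.00716) and KO (-1.56 ± 0.35, adjusted p = 0.0014), and FURIN, a proprotein convertase, rose by 0.15 ± 0.05 in BAZ1B KO (adjusted p = 0.0141). SORL1, a sorting receptor, had 10 to 17 reads in H2A.X KO at D0 and none at D6. In all, 3 of 17 receptor genes rose and 8 fell in BAZ1B WT, and 4 rose and 8 fell in BAZ1B KO, beside 68.9% and 67.7% of all tested genes that changed. In H2A.X KO 1 of 16 rose and 5 fell, beside 30.9% of all genes.

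Of the 31 signalling genes, 9 rose and 18 fell in BAZ1B WT, and 8 rose and 18 fell in BAZ1B KO, beside 68.9% and 67.7% of all tested genes that changed. In H2A.X KO 2 of 30 rose and 4 fell (30.9% of all genes), and 2 and 7 with the subclone number as a block (38.5%). LYN, a Src-family kinase abundant in blood cells, had log2 fold changes of -2.01 ± 0.08 in BAZ1B WT, -1.76 ± 0.08 in BAZ1B KO and -1.82 ± 0.25 in H2A.X KO (adjusted p = 2.56e-10, 5.96e-10 and 0.000748). CFL1, which severs actin filaments, fell in BAZ1B WT (-0.64 ± 0.04) and KO (-0.60 ± 0.04), as did SOCS7 (-0.80 ± 0.07 and -0.84 ± 0.07), and AKT2, a kinase activated by phosphatidylinositol 3-kinase, rose (0.42 ± 0.04 and 0.62 ± 0.04). In H2A.X KO, SOCS2 (-0.79 ± 0.13), LIMK1, which inactivates cofilin (-0.75 ± 0.17), and RAPGEF1 (-0.85 ± 0.20) fell, with adjusted p between 0.00205 and 0.00932.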

How the data were processed

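RNA-Seq libraries of HUDEP-2 cells were analysed in 2 experiments, H2A.X (10 libraries) and BAZ1B (12 libraries). The values are raw read counts per gene as the authors deposited them, 1 table per experiment. The submitters' processing notes list STAR 2.7.0f, Subread 1.6.4 (featureCounts), DESeq2 1.22.1 and hg38. The study's methods name a stranded kit and the labels an unstranded one. Counts were fitted with edgeR 4.0.16 under R 4.3.3: filterByExpr (minimum count 10, minimum total 15), TMM factors and a quasi-likelihood fit with 1 coefficient per genotype and day on all libraries of an experiment. The filter kept 13236 and 13879 genes, with at least 99.9% of the counts of each library. Tests were two-sided, with Benjamini-Hochberg adjustment over all tested genes and a threshold of 0.05. Each standard error is the absolute log2 fold change over the square root of F. For normalized counts, each count was divided by the TMM-scaled total of its library over the mean of such totals. CPM are counts per 1000000 counted reads, and RPKM divides them by the MANE Select transcript length of GENCODE 44 on GRCh38, a length chosen after seeing the data. Of 59087 gene names, 36434 matched that annotation by symbol and 756 by an older symbol.

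The 4 genes, the pathway and marker lists and the tests were chosen with earlier results of these data known. Named were the 4 genes, the tested genes within 1 Mb of RELN, the 5 genes most like RELN, and up to 4 called genes per pathway list and comparison with the smallest p. Some genes of the lists are counted in them but not reported here by name. Alternatives were DESeq2 1.42.0, RLE and upper-quartile factors, library sizes without globin genes, no filter, the compared day alone, a stricter call, the replicate or subclone number as a block, an offset per library for transcript length and GC content (natural splines of 4 degrees of freedom), and each library left out in turn. The list counts under alternatives, the comparison by the word Redo and the class of transcripts of at least 8 kb were added after seeing the data. Simulated data with known changes were used to test the procedure. Every pair of replicates differed by more than sampling noise. Correlations of the deviations from the group means were computed between D0 and D6 libraries of the same number. The values were 0.289 to 0.562 over the 3 pairs of H2A.X KO and 0.107 to 0.505 over those of BAZ1B KO. Over the BAZ1B WT pairs they were -0.03 to 0.237. The 2 pairs of H2A.X WT both gave 0.595, since deviations of 2 libraries mirror each other. The column names carry the same KO numbers at both days. Libraries of different numbers were not compared, so these values alone do not pair the days.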

Additional observations from a re-analysis of the deposited data

Results flagged for a closer look

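The KO effect on PIK3R1 in BAZ1B cells was called different between days (interaction term in edgeR, adjusted p = 0.0452). KO exceeded WT by 0.36 ± 0.08 more on the log2 scale at D6 than at D0. Of all tested genes, 2.47% were called in this comparison. With upper-quartile factors no gene of the signalling list was called in it. The same held without WT replicate 1, 2 or 3 or KO replicate 2 or 3 at D0.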

How the results depend on the processing

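Intervals, floors and depth bear mainly on VLDLR, DAB1 and the 27 to 358 LRP8 reads of the H2A.X libraries, and the 2 WT libraries of that experiment carry every call against WT. Of the alternatives, 148 kept RELN and 151 kept LRP8 in direction and on the same side of the threshold or within the replicate spread, while 9 for RELN and 10 for LRP8 ended a call, 1 for each made one, and 1 moved RELN past that spread. For RELN they include 15 of BAZ1B KO against WT at D0, 15 at D6 and 20 of the difference between days. These use the values by which RELN was chosen, so their direction is no check. Comparisons that were uncalled and stayed so also count as kept. Without a filter on low counts, the KO effect on LRP8 at D6 minus D0 in H2A.X (-1.53, adjusted p = 0.0307) and the change of RELN between days in H2A.X WT (-0.72, adjusted p = 0.0351) were called. With the correction for length and GC content, LRP8 in H2A.X KO against WT at D0 was 0.75 and RELN between days in BAZ1B KO was -0.15 (adjusted p = 0.0524), neither called, and with the replicate block added the values were 0.60 and -0.15 (adjusted p = 0.0512). In the H2A.X libraries without the word Redo, RELN at D6 was 1.42 (adjusted p = 0.0842). The stricter call, which asks for an adjusted p under 0.001 together with a log2 change past 1.5, ended the calls of RELN in H2A.X KO against WT at D0 (1.74) and D6 (2.19), of LRP8 there at D0 (1.40), of LRP8 between days in H2A.X KO (-1.91) and BAZ1B WT (-1.33), and of RELN between days in BAZ1B WT (-0.69) and KO (-0.32). Leaving out 1 library at a time, RELN in H2A.X KO against WT ranged from 1.27 to 2.43 at D0 and 1.78 to 2.49 at D6, with the call ended at each day without WT replicate 2 (adjusted p = 0.139 and 0.0681). LRP8 at D0 ranged from 1.16 to 1.69, uncalled each time, and the KO effect on RELN at D6 minus D0 in BAZ1B from 0.26, without KO replicate 3 at D6, to 0.46. Apart from fewer libraries in these, the cause of none of these shifts was tested. KO and WT libraries of the same number correlated in their deviations by 0.118 to 0.237 in the H2A.X experiment, which has 2 such pairs. In the BAZ1B experiment the values were -0.151 to 0.243. These ranges overlap that between days in BAZ1B KO, and whether such libraries share more than a number was not tested. The replicate block changed no call of RELN or LRP8 (RELN in H2A.X KO against WT 2.02 at D0 and 2.28 at D6), moved the receptor genes called there at D0 from 5 to 8, and ended those of SRC (adjusted p = 0.0594) and PIK3CA (adjusted p = 0.0665) in BAZ1B KO at D6.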
